A study of Homo sapiens with 6 samples.

Results

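Genes of glycolysis and of the response to low oxygen were compared across 3 human multiple myeloma lines and between the CD24+ and CD24- fractions of each line. The set held 37 listed genes, 25 of them glucose and lactate transporters, glycolytic enzymes and the kinases that steer them, and 12 of them oxygen sensors and targets of hypoxia-inducible factor (HIF). Members were chosen by symbol: probe sets annotated only to a listed gene were taken, and the one brightest on average over the 6 arrays stood for the gene. In this way 34 members were named, and 31 were bright enough to be tested, of 19775 genes named and 12078 tested on the arrays. SLC16A1 and SLC16A3, which export lactate, and CA9, a carbonic anhydrase, had no probe set annotated to them alone and were not analysed here. ENO2, EGLN3 and BNIP3 were named but lay below the brightness limit. Of the 25 glycolytic members 22 were tested, and of the 12 HIF members 9.

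Glycolysis turns glucose into pyruvate, and cancer cells often run it fast and reduce the pyruvate to lactate even with oxygen at hand. When oxygen is low, prolyl hydroxylases such as EGLN1 stop marking HIF1A for destruction, and the protein then raises transcription of glycolytic enzymes, glucose transporters, VEGFA and many others. Several steps of the pathway have isoenzymes encoded by separate genes, and cell lines can differ in which of them they use.

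The lines were ARP1, OCI-MY5 and OPM2, grown in RPMI-1640 with serum and antibiotics and carrying no stated treatment or engineered allele. An antibody to CD24, a surface glycoprotein, served to sort the cells in a flow cytometer, and the submitters call the CD24+ cells cancer stem cells. Each line gave 1 array of CD24+ RNA and 1 array of CD24- RNA, so a fraction had 3 arrays, a line had 2, and the number of arrays limits the precision. Nothing in the labels says that samples came from repeated cultures, so p-values measure the spread between these samples only, and a line stands for 1 culture or stock. Fewer cells of one kind and less RNA per cell cannot be told apart in such bulk samples. No oxygen level was varied or stated.

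All 8 plasma cell markers examined, among them SDC1 and TNFRSF17, lay above the range of the TrpnX background controls (2.23 to 96.4) on every array. None of 5 T and NK cell markers and none of 3 myeloid markers did so on all 6 arrays. COL1A1, 1 of 3 stromal markers, and KRT8, 1 of 3 epithelial markers, did, at 181 to 369 and 96.8 to 171. HBB, the only erythroid marker named of 3, was 2298 and 1792.5 in OPM2 and 76.2 to 225 elsewhere, and its part in the OPM2 results was not tested. The OPM2 CD24+ array stood apart: its spike-in controls had a geometric mean of 37362 against 6174.5 to 7399.5 on the others, its median intensity was 135 against 69.0 to 84.2, and its ACTB 3′ to 5′ signal ratio, which grows as RNA shortens, was the highest at 27.1. OCI-MY5 was high in that ratio too, at 9.36 and 23.2, with 7.54 in OPM2 CD24- cells and 2.63 and 2.47 in ARP1. The part of RNA length in the differences between lines was not tested.

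HIF binds DNA at short sites whose core reads ACGTG or GCGTG, and for the members that moved between lines the bases just before the gene start show how far they share those letters. RefSeq promoter sequences of GRCh38.p14 were found for 32 of the 37 members, and the 250 bases before each start were searched on both strands for ACGTG and for GCGTG. At least 1 of these motifs stood in 20 of the 32 members (62.5%), against 43.1% of 27305 promoters of the same length. ACGTG stood in 43.8% of members and 18.7% of all promoters, and GCGTG in 34.4% and 31.9%. By set it was 13 of 23 glycolytic members (56.5%) and 7 of 9 HIF members (77.8%). The 6 stretches of 80 bases that follow are from members that differed between lines and hold a match. The first 4 were higher in OPM2 and the last 2 lower, and each is read 5′ to 3′ on the strand of the gene. Capitals mark ACGTG or GCGTG, or their reverse complements CACGT and CACGC, and a CACGTG counts once on each strand.
HK2, chr2:74834035-74834114, plus strand: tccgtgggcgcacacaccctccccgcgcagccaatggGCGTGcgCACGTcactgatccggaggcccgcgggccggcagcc
PGK1, chrX:78104009-78104088, plus strand: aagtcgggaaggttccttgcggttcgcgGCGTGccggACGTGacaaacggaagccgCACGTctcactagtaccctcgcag
PFKFB4, chr3:48556930-48557009, minus strand: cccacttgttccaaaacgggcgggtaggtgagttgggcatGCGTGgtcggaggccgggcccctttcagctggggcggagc
HIF1A, chr14:61695269-61695348, plus strand: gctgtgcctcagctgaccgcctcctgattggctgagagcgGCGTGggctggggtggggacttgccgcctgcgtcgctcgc
ADM, chr11:10304932-10305011, plus strand: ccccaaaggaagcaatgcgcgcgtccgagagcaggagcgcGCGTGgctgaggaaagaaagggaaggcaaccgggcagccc
ANKRD37, chr4:185396646-185396725, plus strand: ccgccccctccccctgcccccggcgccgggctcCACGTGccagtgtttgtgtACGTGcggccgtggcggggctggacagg
HK2 had GCGTG and CACGT close together, and PGK1 and ANKRD37 each had 3 matches within the 80 bases. ANKRD37, which was lower in OPM2, held ACGTG as HK2 and PGK1 did. ADM, also lower in OPM2, held 1 GCGTG and no ACGTG. Of the members lower in OPM2 than in ARP1 that had a promoter sequence, 2 of 4 held a match, and of those higher 4 of 7; against OCI-MY5 it was 2 of 4 and 7 of 9. HK1, PFKP, PGAM1, PDK1 and P4HA2 had none in this window. A match is a description of the letters and not a site in use.

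Of the 31 tested members, 15 (48.4%) differed among the 3 lines by a moderated F-test in limma with Benjamini-Hochberg adjusted p below 0.05 over all 12078 genes. The same test called 28.5% of all genes. Values were compared as log2(intensity + 16), which understates the change of dim genes, and both fractions of a line served as its replicates. Differences ran mainly between OPM2 and the other lines. Against ARP1, 8 members were higher in OPM2 (25.8%, with 10.1% of all genes) and 5 lower (16.1%, with 14.8% of all genes). Against OCI-MY5, 11 were higher (35.5%, with 11.4% of all genes) and 5 lower (16.1%, with 14.7% of all genes). Between ARP1 and OCI-MY5, 1 member was higher in ARP1 (3.23%, with 1.78% of all genes) and none lower (with 0.836% of all genes). These 3 contrasts share arrays and are not independent of each other. The share of all genes called rose with brightness. With the brightness limit raised to the 75th percentile of probe sets, 28 members and 7639 genes were tested. Then 20 members passed the F-test, with 52.3% of all genes. For OPM2 minus ARP1 14 members were called, with 42.2% of all genes, and for OPM2 minus OCI-MY5 15, with 41.7%.

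The calls in the higher direction depended on how the arrays were scaled. After quantile normalization 9 members were higher in OPM2 than in ARP1 and 11 than in OCI-MY5, and all 30 pairwise calls were kept. With median centring fewer were higher. Centring every array on its own median moves the median of all genes from -0.04 to -0.30 for OPM2 minus ARP1 and from 0.00 to -0.40 for OPM2 minus OCI-MY5. In that setting 4 members were higher and 5 lower than in ARP1, and 5 higher and 5 lower than in OCI-MY5. Of all genes 15.5% and 18% were then called in these contrasts, against 25% and 26.1% without centring. Counts also moved with single arrays. Among the 3 lines more members, and more of all genes, passed without 1 of the OPM2 arrays. Without 1 array of ARP1 or OCI-MY5, fewer members and fewer of all genes passed that test. Members called higher in OPM2 than in ARP1 or OCI-MY5 were then fewer too, as were all genes called in those contrasts. Between ARP1 and OCI-MY5, members and all genes alike were called less often without 1 of those lines' arrays. Without 1 of the OPM2 arrays they were called more often. Each such fit leaves 1 line with 1 array.

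Of 30 calls in the pairwise contrasts, 17 stayed past the threshold in every alternative fit that gave a value, including those without any 1 array; for SLC2A3, HK1 and P4HA2 the limit at the 75th percentile of brightness gave none. They covered 9 members: SLC2A3, HK1, HK2, PFKP, PDK1, PFKFB4, ADM and P4HA2 in both OPM2 contrasts, and BNIP3L against OCI-MY5. Without the OPM2 CD24+ array, which leaves that line with 1 array assumed to vary like the other lines, 29 of the 30 calls were kept, the highest adjusted p among them being 0.0498 by limma, and the exception was EGLN1.

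**Figure D1:**
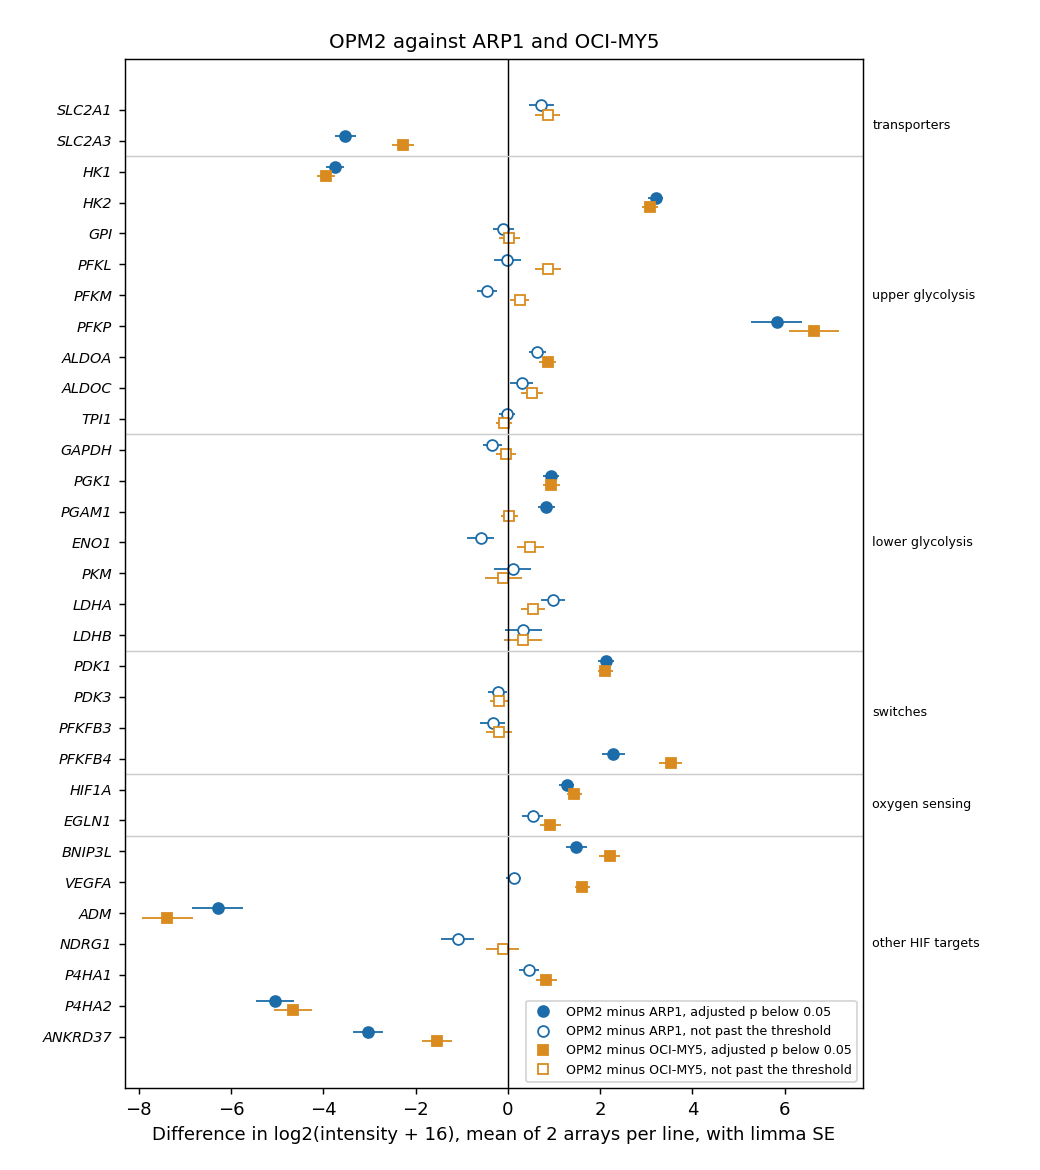
Differences of OPM2 from ARP1 (circles) and from OCI-MY5 (squares) for the 31 tested members, in log2(intensity + 16) on the horizontal axis, with the limma standard error as a bar; filled symbols have a Benjamini-Hochberg adjusted p below 0.05. ADM lies farthest to the left at -6.28 and -7.38, and PFKP farthest to the right at 5.82 and 6.64.

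Of the glucose transporters, SLC2A3 was lower in OPM2 and SLC2A1 did not pass the test. SLC2A3 (GLUT3), a high-affinity glucose transporter, had intensities of 506 and 527 in ARP1 (values of a line are given in the order CD24+, CD24-), 251 and 172 in OCI-MY5, and 27.6 and 33.3 in OPM2. On this probe set both OPM2 values lay within the range of the background controls, below every value of the other lines. The difference was -3.52 (SE 0.23, adjusted p = 0.0013 by limma) from ARP1 and -2.27 (SE 0.23, adjusted p = 0.0038) from OCI-MY5. Because the OPM2 level is only bounded, SLC2A3 was at least 6.72-fold higher in ARP1 and at least 2.70-fold higher in OCI-MY5, taking the brightest background control on each OPM2 array as the floor. Its other 2 probe sets were also lower in OPM2, with differences of -2.93 and -3.01 from ARP1. They were less even: one read 108 in the CD24+ cells of OPM2, above the 106 of OCI-MY5 CD24+ cells and above the controls, and 6.72 in the CD24- cells. The other read 12.6 in CD24+ cells and 67.7 in CD24- cells, where the brightest control was 61.3. The related gene SLC2A14 is nearly identical in sequence, and binding of its transcript was not tested. SLC2A1 (GLUT1), the broadly used transporter, was 399 and 433 in ARP1, 346 and 409 in OCI-MY5, and 886 and 551 in OPM2. The OPM2 values were the highest but did not pass the test (0.73, SE 0.27, and 0.87, SE 0.27; adjusted p = 0.113 and 0.075). With the OPM2 CD24- array alone the differences were 0.39 and 0.53.

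Hexokinases, which trap glucose in the cell by phosphorylation, split between the lines. HK2, the isoenzyme often raised in tumours, had intensities of 768 and 771 in ARP1, 812 and 867 in OCI-MY5, and 7424 and 7022 in OPM2. HK2 in OPM2 was thus far above both other lines, with close agreement of its fractions. The difference was 3.20 (SE 0.16) from ARP1 and 3.08 (SE 0.16) from OCI-MY5, with limma adjusted p = 7.78e-04 and 7.59e-04. HK1, the common isoenzyme of most tissues, was 544 and 476 in ARP1, 585 and 578 in OCI-MY5, but 27.6 and 19.0 in OPM2. Again the OPM2 values lay within the background range. The difference was -3.75 (SE 0.20) from ARP1 and -3.94 (SE 0.20) from OCI-MY5, with adjusted p = 8.14e-04 and 7.14e-04 in limma. Bounded by the background controls, HK1 was at least 6.62-fold higher in ARP1 and at least 7.57-fold higher in OCI-MY5. The 2 other probe sets of HK2 were higher in OPM2 as well, by 1.18 and 0.74 over ARP1. HK1 has a single probe set here.

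Phosphofructokinase sets the pace of glycolysis and is built from liver (PFKL), muscle (PFKM) and platelet (PFKP) subunits. PFKP intensities were 102 and 97.0 in ARP1, 93.9 and 23.3 in OCI-MY5, and 4959 and 8599 in OPM2. Outside OPM2 the values were low, and that of OCI-MY5 CD24- cells lay within the controls of its array. Both OPM2 values were far above them. The difference was 5.82 (SE 0.55) from ARP1 and 6.64 (SE 0.55) from OCI-MY5, with adjusted p = 0.00325 and 0.00221 by limma. A second PFKP probe set stayed dim on every array, at 55.7 to 98.6, and showed differences of 0.27 and 0.25. PFKM was 6264 and 5402 in ARP1, 3470 and 3634 in OCI-MY5, and 3676 and 4877 in OPM2, and PFKL ranged from 212 to 577; neither passed the F-test (adjusted p = 0.113 and 0.0986).

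PFKFB3 and PFKFB4 make and break fructose 2,6-bisphosphate, the activator of phosphofructokinase, and of the pair only PFKFB4 passed the F-test. PFKFB4 intensities were 310 and 289 in ARP1, 148 and 92.1 in OCI-MY5, and 1478 and 1564 in OPM2. PFKFB4 was highest in OPM2 in both fractions, with ARP1 between the other lines. It was higher in OPM2 by 2.29 (SE 0.25) than in ARP1 and by 3.53 (SE 0.25) than in OCI-MY5, with adjusted p = 0.00474 and 0.00153 in limma. PFKFB3 was 1242 and 1619 in ARP1, 1159 and 1431 in OCI-MY5, and 1355 and 935 in OPM2. Its lines overlapped, and the F-test gave an adjusted p of 0.605.

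Aldolase and phosphoglycerate kinase differed by less than 2-fold on the probe sets that stand for them. ALDOA, the main aldolase, had intensities of 29658 and 25804 in ARP1, 24791 and 22652 in OCI-MY5, and 44392 and 41803 in OPM2. Both OPM2 values were above all others, and the difference of 0.86 (SE 0.18) from OCI-MY5 passed (adjusted p = 0.0252 by limma), whereas 0.64 (SE 0.18) from ARP1 did not (adjusted p = 0.0561). PGK1, which makes ATP from 1,3-bisphosphoglycerate, was 28594 and 28329 in ARP1, 27134 and 29276 in OCI-MY5, and 58464 and 50345 in OPM2. PGK1 was higher in OPM2 by 0.93 (SE 0.18) and 0.94 (SE 0.18) than in ARP1 and OCI-MY5, with adjusted p = 0.0207 and 0.019 in limma. Its probe sets disagreed. One of them (2857 and 3597 in ARP1, 5842 and 6063 in OCI-MY5, 17069 and 15548 in OPM2) gave 2.34 and 1.45. Another gave -0.08 and 0.75, with 5706 in OPM2 CD24+ cells, below the 8640 and 9749 of ARP1. A dim one gave -1.76 and -0.94. The remaining sets gave 0.90 and 0.96, and 0.19 and 0.55. Averaged over its probe sets the differences were 0.42 and 0.62, with limma adjusted p = 0.305 and 0.152. PGAM1, phosphoglycerate mutase, was 15451 and 15194 in ARP1, 24596 and 29076 in OCI-MY5, and 27490 and 27268 in OPM2. Here ARP1 was the low line, and OPM2 exceeded it by 0.84 (SE 0.18, adjusted p = 0.0273 by limma). The calls of all 3 genes were lost with arrays centred on their median, when adjusted p was 0.299 to 0.456. They were also lost without any 1 array of ARP1 or OCI-MY5, when limma adjusted p lay between 0.0591 and 0.149, and with no filter on dim genes (0.0745 to 0.0979). The PGAM1 call was lost with the fraction as a covariate (adjusted p = 0.0519).

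The other tested enzymes of the chain did not pass the F-test. GPI, TPI1 and GAPDH, in upper and middle glycolysis, gave adjusted p of 0.877, 0.909 and 0.404 by limma. ENO1, enolase, was 28227 and 26426 in ARP1, 14869.9 and 11283 in OCI-MY5, and 14448 and 22866 in OPM2, so that ARP1 was highest in both fractions (adjusted p = 0.0868). LDHA, which reduces pyruvate to lactate, was 47679 and 46286 in ARP1, 62051 and 65225 in OCI-MY5, and 116270.0 and 73605 in OPM2. OPM2 was again highest, but its difference of 0.98 (SE 0.26) from ARP1 missed the threshold (adjusted p = 0.0501 by limma), and it was 0.65 with the OPM2 CD24- array alone. LDHB, the partner subunit of LDHA, ALDOC, a brain aldolase, and PKM, pyruvate kinase, gave F-test adjusted p of 0.723, 0.271 and 0.907. ENO2, the neuronal enolase, was too dim to test: it was 230 and 163 in ARP1, 8.0 and 65.2 in OCI-MY5, and 6.56 and 2.54 in OPM2. ENO2 lay above 96.4, the highest control of any array, only in ARP1; the 65.2 of OCI-MY5 CD24- cells exceeded the controls of its own array.

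PDK1 and PDK3 phosphorylate pyruvate dehydrogenase and so keep pyruvate out of the mitochondrion. PDK1 intensities were 1229.8 and 1372 in ARP1, 1261 and 1370.1 in OCI-MY5, and 5731 and 5762 in OPM2. PDK1 was higher in OPM2 in both fractions and nearly equal in the other lines. The differences were 2.13 (SE 0.17) from ARP1 and 2.12 (SE 0.17) from OCI-MY5, with adjusted p = 0.00216 and 0.00209 by limma. The other 2 PDK1 probe sets were higher in OPM2 too, by 1.11 and 1.43 over ARP1. On its brightest probe set PDK3 ran from 1052 to 1437 with overlapping lines (F-test adjusted p = 0.612). A second probe set put both OPM2 arrays below all others, at -2.12 from ARP1 and -1.58 from OCI-MY5. A further set did too, at -1.34 and -1.24. On both sets the OPM2 CD24+ value was within the background controls. The remaining PDK3 probe sets overlapped between lines.

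**Figure D2:**
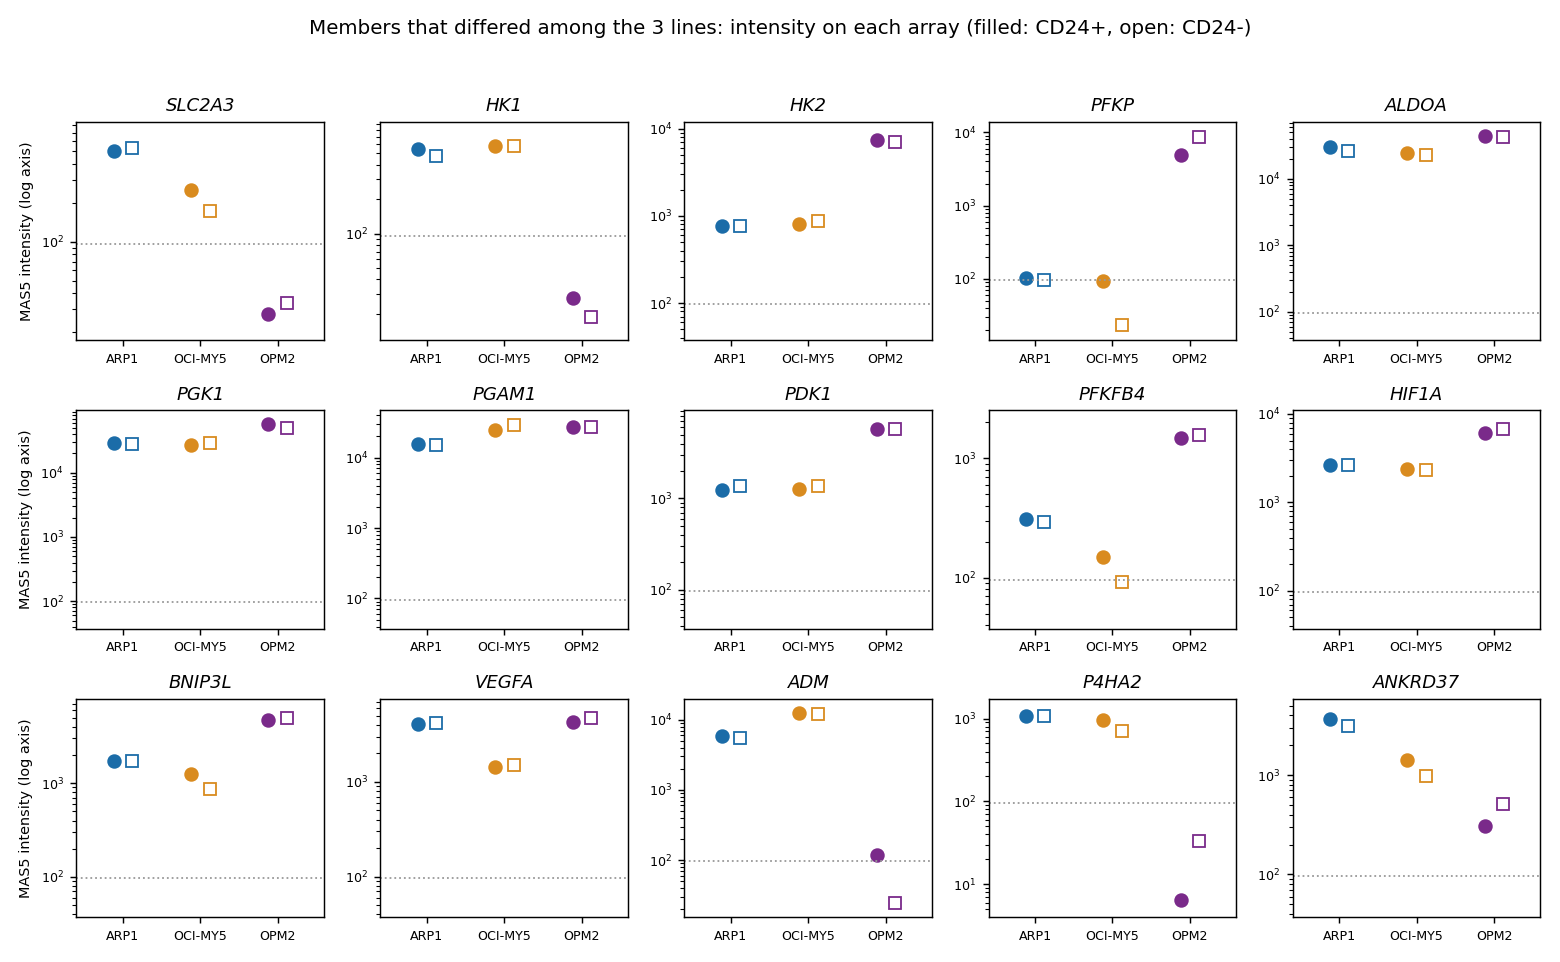
MAS5 intensity on each array, on log axes of their own, for the 15 members that differed among the 3 lines; filled circles are CD24+ and open squares CD24- cells, and the dotted line is the highest background control, 96.4. HK2, PFKP, PDK1, PFKFB4, HIF1A and BNIP3L are high in both OPM2 arrays, and SLC2A3, HK1 and P4HA2 lie below the dotted line there.

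In the oxygen-sensing group HIF1A, the regulated subunit of HIF, was higher in OPM2. Its intensities were 2647 and 2663 in ARP1, 2402 and 2318 in OCI-MY5, and 6073 and 6843 in OPM2. Neither fraction of OPM2 overlapped the other lines, and the differences were 1.28 (SE 0.17) and 1.44 (SE 0.17), with limma adjusted p = 0.00821 and 0.00546. Both calls were lost with arrays centred on their median (1.01 and 1.05, adjusted p = 0.145 and 0.118). The call against ARP1 was lost without either ARP1 array (adjusted p = 0.0708 and 0.0688), and that against OCI-MY5 without its CD24- array (adjusted p = 0.0517). These are transcript levels, and HIF1A is mainly controlled as a protein, which was not measured. EGLN1, the prolyl hydroxylase that marks HIF1A, was 3102 and 4401 in ARP1, 2768 and 2882 in OCI-MY5, and 5034 and 5704 in OPM2. It exceeded OCI-MY5 by 0.92 (SE 0.23, adjusted p = 0.0418 by limma), which missed the threshold without any 1 of the 6 arrays (adjusted p from 0.0583 to 0.178), with centred arrays (0.454), with no filter on dim genes (0.117) and with the mean of its probe sets (0.0513). The F-test did not call EGLN1 (adjusted p = 0.0725). On another EGLN1 probe set OPM2 exceeded ARP1 by 1.15 and OCI-MY5 by 1.44, and on a further one by 1.03 and 1.33. Both OPM2 values were above all others on each. The remaining EGLN1 probe set was dim. EGLN3, a hydroxylase of the same family that HIF induces, was dim at 16.5 to 93.7.

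The targets of HIF did not all move one way. BNIP3L, which tags mitochondria for removal, had intensities of 1733 and 1725 in ARP1, 1239 and 877 in OCI-MY5, and 4769 and 4970.3 in OPM2. OPM2 was highest in both fractions, by 1.49 (SE 0.22) over ARP1 and 2.21 (SE 0.22) over OCI-MY5, with adjusted p = 0.0113 and 0.00365 by limma. The call against ARP1 was lost with arrays centred on their median (adjusted p = 0.0811) and without either ARP1 array (adjusted p = 0.0825 and 0.0808). BNIP3, its close relative, was dim on all arrays, at 3.66 to 52.7.

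VEGFA, the growth factor of blood vessels, was the member by which OCI-MY5 stood apart. Its intensities were 4122 and 4158 in ARP1, 1426 and 1512 in OCI-MY5, and 4333 and 4723 in OPM2. OCI-MY5 was lower than OPM2 by 1.61 (SE 0.17, adjusted p = 0.00389 by limma) and lower than ARP1 by 1.49 (SE 0.17, adjusted p = 0.0308). OPM2 and ARP1 differed by 0.13 (SE 0.17, adjusted p = 0.606). On the other VEGFA probe sets OCI-MY5 was lowest too, but the size varied. OPM2 exceeded it by 0.60, 0.94 and 2.13, and ARP1 by 1.06, 0.96 and 2.70. On the first of these OPM2 CD24+ cells read 554, close to the 547 of OCI-MY5 CD24- cells. On the last the OCI-MY5 values were within the background controls. With arrays centred on their median both calls were lost (adjusted p = 0.0728 and 0.202), and the call between ARP1 and OCI-MY5 was lost without any 1 of their 4 arrays (adjusted p from 0.173 to 0.258), with no filter on dim genes (0.135) and with the fraction as a covariate (0.0794).

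ADM, adrenomedullin, a secreted vasodilator peptide, was far lower in OPM2. Its intensities were 5884 and 5509 in ARP1, 12457 and 12012 in OCI-MY5, and 116 and 24.7 in OPM2. ADM was bright in ARP1 and OCI-MY5, and in OPM2 only the CD24+ array lay above the background controls. The differences were -6.28 (SE 0.55) from ARP1 and -7.38 (SE 0.55) from OCI-MY5, with adjusted p = 0.00285 and 0.00176 by limma. Only 1 of the 2 OPM2 arrays measured ADM above the controls, so the size of these differences is not exact. ADM has 1 probe set here, so no second one bears on it.

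P4HA1 and P4HA2 encode catalytic subunits of the hydroxylase that collagen needs for folding. P4HA2 was 1083 and 1081 in ARP1, 955 and 709 in OCI-MY5, and 6.44 and 33.1 in OPM2. Both OPM2 values were within the background range, so P4HA2 was at least 14.1-fold higher in ARP1 and at least 10.7-fold higher in OCI-MY5. On the log2 scale the differences were -5.05 (SE 0.41) and -4.66 (SE 0.41), with limma adjusted p = 0.00217 and 0.00255. A second P4HA2 probe set gave -2.30 and -1.95. P4HA1 was 2125 and 2159 in ARP1, 1701 and 1598 in OCI-MY5, and 2493 and 3499 in OPM2, above both lines in both fractions. Only its difference of 0.83 (SE 0.22) from OCI-MY5 passed (adjusted p = 0.0481 by limma); the F-test did not call it (adjusted p = 0.0839), and that contrast was lost without any 1 array other than the OPM2 CD24+ array (adjusted p from 0.0561 to 0.206). It was lost as well with the fraction as a covariate (0.072), a pseudocount of 1 (0.0553), centred arrays (0.549) and no filter on dim genes (0.133).

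ANKRD37, an ankyrin repeat protein known as a HIF target, had intensities of 3651 and 3113 in ARP1, 1409 and 988 in OCI-MY5, and 304 and 516 in OPM2. The 3 lines did not overlap, with ARP1 highest and OPM2 lowest. OPM2 differed by -3.04 (SE 0.33, adjusted p = 0.00468 by limma) from ARP1 and by -1.54 (SE 0.33, adjusted p = 0.0273) from OCI-MY5. With the mean of its 2 probe sets, the second of which was dim, both calls were lost (adjusted p = 0.124 and 0.17), and the call against OCI-MY5 was also lost without any 1 array of ARP1 or OCI-MY5 (adjusted p from 0.069 to 0.135), with the fraction as a covariate (0.0526) and with no filter on dim genes (0.0752). NDRG1, a stress-induced protein, was 2479 and 2467 in ARP1, 1305 and 1189 in OCI-MY5, and 806 and 1655.5 in OPM2. OPM2 and OCI-MY5 overlapped in NDRG1, and the F-test gave an adjusted p of 0.113.

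Set side by side, the glycolytic members and the HIF members differed among lines in 9 of 22 (40.9%) and 6 of 9 (66.7%), against 28.5% of all genes. These sets were not counted apart at the 75th percentile of brightness, where 52.3% of all genes differed. Between OPM2 and ARP1, 6 glycolytic members were higher (27.3%) and 2 lower (9.09%), and 2 HIF members were higher (22.2%) and 3 lower (33.3%). All genes gave 10.1% and 14.8%. Between OPM2 and OCI-MY5 these counts were 6 (27.3%) and 2 (9.09%) for the glycolytic members and 5 (55.6%) and 3 (33.3%) for the HIF members. There all genes gave 11.4% and 14.7%. Median differences for OPM2 minus ARP1 were 0.20 in glycolytic members, 0.13 in HIF members and -0.04 in all tested genes, and for OPM2 minus OCI-MY5 they were 0.41, 0.83 and 0.00. The glycolytic median against ARP1 and the HIF median against ARP1 turned to -0.07 and -0.14 with arrays centred on their median, where all genes had -0.30. The HIF median against ARP1 was also below 0 with the mean of all probe sets (-0.23) and without probe sets ending in _s_at or _x_at (-0.48). For the median member the line took 85.6% of the sum of squares and the fraction 0.87%, against 77.5% and 4.76% for the median tested gene. Among HIF members the line took 97.6%, and among glycolytic members 80.3%.

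Isoform choice was described by the log2 ratio of the signals of both isoforms' probe sets on each array. A ratio depends on how each probe set binds, so it is compared between lines and not read as a proportion. HK2 over HK1 was 0.46 to 0.68 on the 4 arrays of ARP1 and OCI-MY5, and 7.41 and 7.65 on the OPM2 arrays. That places OPM2 6.95 above ARP1 and 7.02 above OCI-MY5, where arrays of one line differed with a pooled SD of 0.13, and with HK1 set at the brightest control of each OPM2 array the ratio was at least 6.05 and 6.51. PFKP over PFKL was -2.54 to -1.51 outside OPM2, and 3.07 and 4.42 in OPM2. PFKM over PFKL overlapped between the lines at 2.64 to 4.00.

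Regulatory kinases divided in the same manner. PDK3 over PDK1 was -0.18 to 0.19 outside OPM2, and -2.17 and -2.44 within it. PFKFB4 over PFKFB3 was -3.74 to -1.95 outside, and 0.12 and 0.73 within. For the transporters, SLC2A3 over SLC2A1 was 0.33 and 0.27 in ARP1, -0.44 and -1.18 in OCI-MY5, and -4.37 and -3.52 in OPM2. P4HA2 over P4HA1 was -1.16 to -0.82 outside OPM2, and -6.80 and -6.16 within it. SLC2A3 and P4HA2 were within the background range in OPM2; with them at the brightest control of each array the OPM2 ratios were at most -3.01 and -2.88 for the transporters and -4.48 and -5.51 for the hydroxylases. In these 6 pairs the OPM2 arrays lay outside the range of the other 4, and the direction was kept in each of 12 settings for both line contrasts. ALDOC over ALDOA overlapped between OPM2 and ARP1, with OPM2 minus ARP1 at -0.34 on average. LDHB over LDHA overlapped between OPM2 and OCI-MY5, with OPM2 minus ARP1 at -0.64. Pairs with ENO2, BNIP3 or EGLN3 have a dim member and are not read here.

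**Figure D3:**
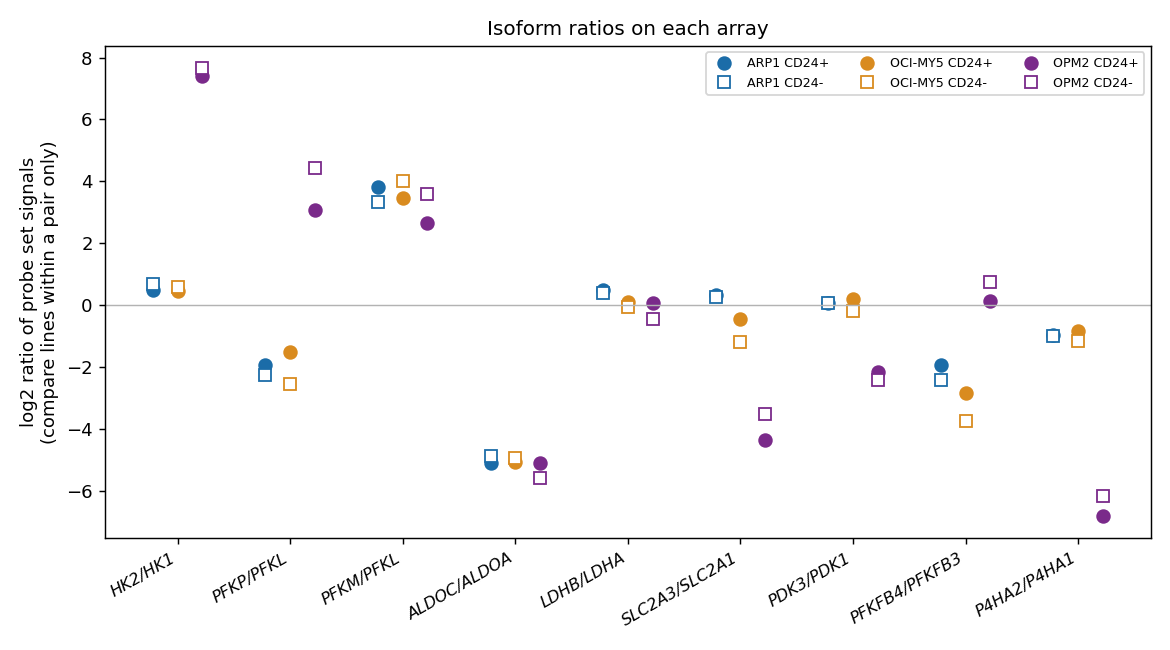
log2 ratio of the probe set signals of each isoform pair on the 6 arrays, with filled circles for CD24+ and open squares for CD24- cells; lines are to be compared within a pair only. OPM2 lies apart for HK2 over HK1, at 7.41 and 7.65 against 0.46 to 0.68, and overlaps the other lines for PFKM over PFKL.

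No difference between the CD24+ and CD24- cells was detected for any member. In the limma fit of the 6 arrays 0 of 31 members and 0 of 12078 genes (0.00%) had an adjusted p below 0.05. At an unadjusted p below 0.05 there were 0 members and 149 genes. With the cell line as a block, which pairs the fractions, there were 0 members and 560 genes. Without the block, differences between lines stayed in the error: HK2 had an SE of 1.19 there, though its paired differences had an SD of 0.09. With 3 arrays a fraction, absence of a difference was not shown. The lowest adjusted p of any member was 1 without the block and 0.847 with it. The median difference, CD24+ minus CD24-, was 0.11 for glycolytic members, -0.07 for HIF members and 0.03 for all tested genes. Of the 31 members 8 (25.8%) kept one sign in all 3 lines, against 29.1% of all genes.

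Of those 8, HK1, ALDOA, GAPDH, LDHB and ADM were higher in CD24+ cells of every line. GAPDH, which oxidises the triose phosphates, differed by 0.24 ± 0.10 (SD, n = 3 lines), ALDOA by 0.14 ± 0.06 and HK1 by 0.17 ± 0.15. LDHB differed by 0.47 ± 0.63 and ADM by 0.62 ± 0.94, so that their spread between lines exceeded their mean. Both HK1 values in OPM2, 27.6 and 19.0, lay within the background controls, so its sign there is not secure. That OPM2 difference, 0.32, was the largest of its 3. The ADM value of OPM2 CD24- cells, 24.7, lay within them too, so the size of its difference there is not exact. PDK1, EGLN1 and VEGFA were lower in CD24+ cells of every line, by a mean of -0.09 ± 0.08, -0.25 ± 0.23 and -0.07 ± 0.06. HK2, so different between lines, differed between fractions by -0.01 ± 0.09. HK1, ALDOA and GAPDH took the opposite sign (-0.16, -0.19 and -0.09) with arrays centred on their median, which moves the median of all genes to -0.30.

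Within single lines there was 1 array a fraction and no test. In ARP1 no member was 2-fold apart between fractions, against 5.07% of all genes. In OCI-MY5 1 member was, PFKP, higher in CD24+ cells by 1.48 at intensities of 93.9 and 23.3, the second within the background controls, against 5.72% of all genes. In OPM2 5 members were (16.1%), against 18.2% of all genes. ADM, LDHB and PKM were higher in its CD24+ cells by 1.70, 1.19 and 1.09, and NDRG1 and P4HA2 lower, at -1.02 and -1.13. These 5 rest on the OPM2 CD24+ array, with its spike-in mean of 37362 and median intensity of 135; its part in them was not tested, and without it no difference within OPM2 can be formed. LDHB shows the dependence on the probe set, since its second probe set read 49748 and 41887 in OPM2, a difference of 0.25, where the first read 121679 and 53254. ADM and P4HA2 were near or within the background range in OPM2. Without the OPM2 line 0 members were called between fractions, the lowest adjusted p over all genes being 1 by limma.

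**Figure D4:**
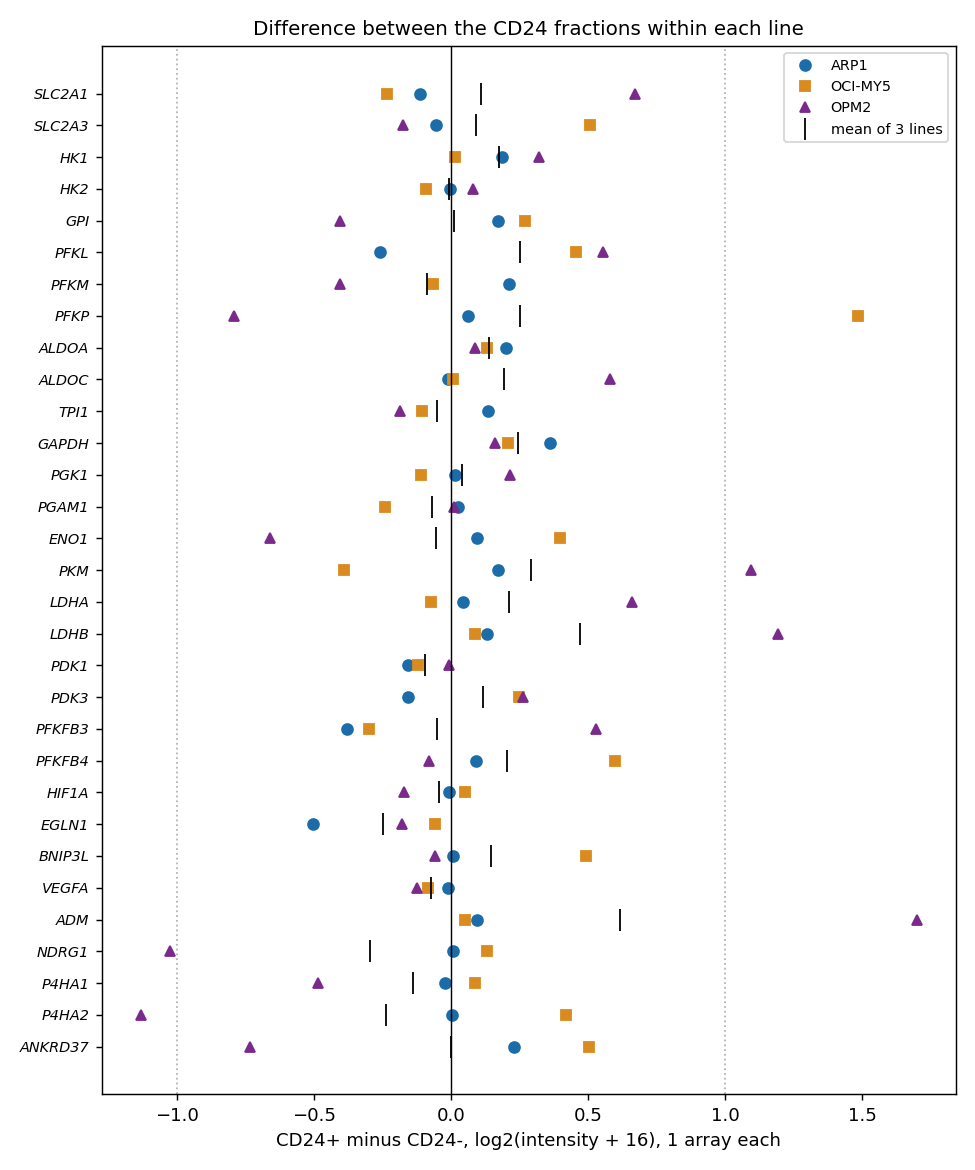
CD24+ minus CD24- difference of each tested member in log2(intensity + 16), 1 symbol a line and a vertical tick for the mean of the 3 lines; dotted lines mark 2-fold. Most symbols lie between the dotted lines, PFKP reaches 1.48 in OCI-MY5, and ADM reaches 1.70 in OPM2.

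Other genes of the same pathways were counted from lists chosen by symbol. Of 27 tested other HIF targets 16 (59.3%) differed among lines, against 28.5% of all genes. The lists were not counted at the 75th percentile of brightness, where 52.3% of all genes differed. In OPM2 9 (33.3%) were higher and 4 (14.8%) lower than in ARP1, where all genes gave 10.1% and 14.8%. Against OCI-MY5 11 (40.7%) were higher and 6 (22.2%) lower, where all genes gave 11.4% and 14.7%. DDIT4, a stress-induced inhibitor of mTOR signalling, and RORA, a nuclear receptor, were higher in OPM2 than in ARP1 by 2.46 (SE 0.28) and 3.12 (SE 0.30), with adjusted p = 0.00535 and 0.00336 by limma. STC2, a secreted glycoprotein, and MAFF, a bZIP protein, differed from ARP1 by -3.60 (SE 0.22) and -2.63 (SE 0.25), with adjusted p = 0.0011 and 0.0035 by limma. The STC2 values in OPM2, 31.2 and 19.0, were within the background range, so its difference is not exact. From OCI-MY5 these genes differed by 3.19 for RORA, -3.32 for STC2 and -1.97 for MAFF. CXCR4, a chemokine receptor of marrow homing, was 5940 and 4365 in ARP1, 596 and 585 in OCI-MY5, and 12722.5 and 9736 in OPM2. OCI-MY5 was thus the low line for CXCR4, as it was for VEGFA, with OPM2 above it by 4.20 (SE 0.24) and ARP1 by 3.07 (SE 0.24), at limma adjusted p = 9.27e-04 and 0.0225.

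Of 16 other glycolysis genes 4 (25%) differed among lines, no larger a share than the 28.5% of all genes. They were MINPP1, ADPGK, PGM1 and SLC16A7, the last of which passed no single contrast. In the contrasts 1 was higher (6.25%) and 2 lower (12.5%) in OPM2 than in ARP1, where all genes gave 10.1% and 14.8%. Against OCI-MY5 4 were higher (25%) and 1 lower (6.25%), where all genes gave 11.4% and 14.7%. MINPP1, a phosphatase of inositol phosphates and bisphosphoglycerate, was higher in OPM2 by 2.06 (SE 0.20) and 1.63 (SE 0.20) than in ARP1 and OCI-MY5. BSG, the chaperone of the lactate transporters, SLC2A8, a glucose transporter, and PGM2, a phosphopentomutase, were higher than in OCI-MY5 by 1.36 (SE 0.31), 1.17 (SE 0.27) and 1.16 (SE 0.26). These last genes passed that contrast only and not the F-test (adjusted p = 0.0552, 0.0627 and 0.0507). ADPGK, the ADP-dependent glucokinase, and PGM1, phosphoglucomutase, were lower, at -1.17 (SE 0.21) and -1.03 (SE 0.22) from ARP1, and PGM1 also from OCI-MY5, at -0.87 (SE 0.22).

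Of 10 genes of pyruvate entry to mitochondria 3 (30%) differed among lines, a share near that of all genes. MPC1, a subunit of the pyruvate carrier, was higher in OPM2 by 0.94 (SE 0.18) and 0.97 (SE 0.18) than in ARP1 and OCI-MY5. Its partner MPC2 was higher than in ARP1 by 1.07 (SE 0.24), and PDHA1, a subunit of pyruvate dehydrogenase, higher than in OCI-MY5 by 0.74 (SE 0.19). MPC2 and PDHA1 did not pass the F-test (adjusted p = 0.0505 and 0.0703). PDP1, a phosphatase that reverses the action of PDK1, was lower, at -0.999 (SE 0.18) and -0.89 (SE 0.18), and PDPR, the regulatory subunit of that phosphatase, at -1.07 (SE 0.19) from ARP1. In the pentose phosphate pathway 2 of 6 genes (33.3%) differed, again near the share of all genes. They were PGLS and RPIA, both lower in OPM2 than in ARP1, at -1.503 (SE 0.19) and -1.35 (SE 0.21), and RPIA also lower than in OCI-MY5, at -1.26 (SE 0.21). Of 7 tested regulators of HIF, such as ARNT and VHL, 0 passed the F-test, though CREBBP passed the single contrast with OCI-MY5 (0.82, SE 0.18, adjusted p = 0.0286 by limma).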

How the data were processed

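RNA of 6 samples, CD24+ and CD24- cells of 3 lines, was hybridised to 1 human U133 Plus 2.0 array each (Affymetrix), from 100 ng of total RNA per the labels' protocols. Per the submitters' processing notes, values came from Affymetrix Expression Console 1.1 with the MAS5 algorithm. Each of the 54675 probe sets has 1 deposited intensity per array, on a linear scale, after 1 scaling factor per array. Detection calls, scan dates and raw scanner files were not used here.

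Gene names came from the platform annotation, updated through the RefSeq gene table. After 62 control probe sets were left out, 1 probe set stood for each of 19775 genes, and the 12078 whose mean on the log2 scale reached 6.36 (the median over probe sets) were tested. The deposited intensities were taken as log2(intensity + 16) and fitted with lmFit and eBayes of limma 3.58.1 under R 4.3.3 (two-sided, Benjamini-Hochberg over all tested genes, threshold 0.05): CD24+ against CD24-, and line against line, each over all 6 arrays. The scripts were tested on simulated data. At-least folds take, on each dim array, the higher of the gene's value and the brightest of 3 TrpnX controls. Titles number the samples by line, and arrays of one line deviated together from their group means (r = 0.70, 0.71 and 0.77, against -0.58 to 0.15 for arrays of different lines). The shared line therefore pairs the samples. The design text names no pairing, so the line block was an alternative.

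Members and lists were chosen with earlier results of these data known. The text names every member, gives per-array values for those past the F-test, and from each list names up to 4 genes past the threshold with the largest difference in a contrast. SLC16A7 is named besides, for the F-test. Alternatives were pseudocounts of 1 and 64, other brightness limits, quantile and median scaling, other probe set choices, an intensity trend, the fraction as a covariate, the block, and leaving out each array or line.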

Additional observations from a re-analysis of the deposited data

Results flagged for a closer look

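PFKP, the platelet phosphofructokinase, differed between CD24+ and CD24- cells in opposite directions in OCI-MY5 and OPM2. The difference, CD24+ minus CD24-, was 1.48 in OCI-MY5 and -0.79 in OPM2 on the log2(intensity + 16) scale. The OCI-MY5 intensities were 93.9 and 23.3, the second within the background controls of its array, and the OPM2 intensities were 4959 and 8599. Each value is 1 array against 1 array, and the difference between the lines was not tested.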

How the results depend on the processing

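The count of members called between fractions was 0 in every setting, the cell line as a replicate block included; the block was fitted for the fractions only. Between lines the fraction as a covariate lost 4 calls, those of PGAM1 against ARP1, of P4HA1 and ANKRD37 against OCI-MY5, and of VEGFA between ARP1 and OCI-MY5. Of 30 calls between lines 17 kept their direction and their side of the threshold in every setting that gave them a value, and none reversed; the limit at the 75th percentile gave a value for 24 of the 30, leaving out SLC2A3, HK1 and P4HA2, and the setting without _s_at or _x_at probe sets for 29. Leaving out 1 array at a time gave 11 to 23 members called among the 3 lines, 10 to 19 for OPM2 minus OCI-MY5 and 0 to 6 for ARP1 minus OCI-MY5. The highest of these came without an OPM2 array (the OPM2 CD24- array for 23 and 19), and the lowest without an ARP1 or OCI-MY5 array; such a fit assumes that the line's lone array varies like the other lines. In each comparison the share of all genes called was likewise highest without an OPM2 array and lowest without an ARP1 or OCI-MY5 array. These swings were therefore not particular to the members. Members called for OPM2 minus OCI-MY5 were 10 with arrays centred on their median, against 16. Members called for ARP1 minus OCI-MY5 were 0 with no filter on dim genes, with centred arrays or with the fraction as a covariate. They were 4 at a pseudocount of 64, 6 with the dim-gene limit at the 75th percentile and 7 with an intensity trend, against 1. All genes moved the same way, from 2.62% called in that contrast in the main fit. Their share fell to 0%, 1.21% and 0.0497% in the first settings and rose to 6.19%, 16.8% and 11.4% in the others.

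Medians of glycolytic members moved as follows. With centred arrays they were -0.22 between fractions, -0.0652 for OPM2 minus ARP1 and 0.0128 for OPM2 minus OCI-MY5. Between fractions the median was 0.0443 after quantile normalization and 0.18 with the mean of all probe sets. Without 1 array it ranged from -0.0219 to 0.28 between fractions, from 0.0425 to 0.62 for OPM2 minus ARP1 and from 0.24 to 0.64 for OPM2 minus OCI-MY5.

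Medians of HIF members, of which 9 were tested, moved more. With centred arrays they were -0.40 between fractions, -0.14 for OPM2 minus ARP1 and 0.44 for OPM2 minus OCI-MY5. With the mean of all probe sets they were 0.11 between fractions and -0.23 for OPM2 minus ARP1. Without probe sets ending in _s_at or _x_at they were -0.48 for OPM2 minus ARP1, 0.41 for OPM2 minus OCI-MY5 and 0.55 for ARP1 minus OCI-MY5. With the limit at the 75th percentile they were 0.29 for OPM2 minus ARP1 and 0.55 for ARP1 minus OCI-MY5, and with no filter 0.13 for OPM2 minus OCI-MY5. Without 1 array they ranged from -0.40 to 0.0533 between fractions, from 0.59 to 1.01 for OPM2 minus OCI-MY5 and from 0.39 to 0.64 for ARP1 minus OCI-MY5.

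Single differences between fractions, none of them called, reversed in places. With centred arrays HK1 was -0.16, ALDOA -0.19 and GAPDH -0.0875, and with the mean of all probe sets VEGFA was 0.20. Without 1 array, when fractions hold different lines, HK1 ranged from -1.14 to 1.42, ALDOA from -0.10 to 0.40, PDK1 from -0.82 to 0.59, VEGFA from -0.59 to 0.45 and ADM from -1.93 to 2.62. The cause of these changes was not tested. Signal near the background controls limits SLC2A3, HK1, ADM and P4HA2 in OPM2, and PFKP in OCI-MY5 CD24- cells.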
